A study of Mus musculus with 9 samples.

Results

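Cd22, Siglecf, Cd72, Cd83 and Ly75 encode 5 surface receptors that are best known from B cells, dendritic cells and eosinophils, and all 5 were measured here in CD8 T cells. CD22 and Siglec-F are sialic acid-binding lectins, CD72 and DEC-205 (the product of Ly75) belong to the C-type lectin superfamily, and CD83 is an immunoglobulin-type receptor and not a lectin, so the common heading of B-cell-type lectins does not cover each of them. The genes were found by matching the RefSeq accession in each probe set's name to the gene's symbol, which gave 5 probe sets, 1 per gene, out of 1246 probe sets and 909 named genes. They were selected on measured values, since earlier results of these same comparisons were known when the list was drawn up. For this reason their levels and differences are given as a description, with standard errors and without p-values, and tests are given only for other genes.

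The samples were CD8+ T cells of female mice that carried a T cell receptor transgene, on the B10D2 background, hybridised to single-colour GLYCOv4 arrays. Naive cells, which carry the transgene too, were the control (n = 3 arrays). Deletion cells had received a weak signal in vivo from the antigen their receptor recognises (n = 3), and anergy cells a strong one (n = 3), and the comparison asked how genes of glycosylation differ between cells bound for deletion and for anergy. The sources used here do not give the age of the mice, the receptor, the time of stimulation or whether each array came from its own mouse, so the errors describe the spread between these arrays, which may be technical.

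Siglecs recognise sialic acid at the ends of glycans, and most carry tyrosine motifs in their tails that recruit phosphatases and dampen signalling. CD22 prefers alpha-2,6-linked sialic acid and restrains the B cell receptor, and Siglec-F is found on eosinophils and binds sulfated sialylated glycans. CD72 is a further inhibitory receptor of B cells, CD83 marks mature dendritic cells and activated lymphocytes and stabilises MHC class II molecules, and DEC-205 is an uptake receptor of dendritic cells and thymic epithelium.

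The data showed 3 of the 5 receptors at higher levels after antigen and 2 at lower levels, with the same direction under the weak and the strong signal. The largest difference was that of Cd83, 7.06-fold higher in deletion than in naive cells and 3.54-fold higher in anergy than in naive cells. Cd22 was 2.26-fold and 1.97-fold higher, and Cd72, which B cells express beside it, was 2.96-fold and 3.11-fold lower. Cd83 was also the only 1 of the 5 whose deletion and anergy arrays did not overlap. In cells taken in bulk, a change in the number of cells that express a gene and a change in its RNA per cell cannot be told apart.

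RefSeq's promoter windows of the GRCm38.p6 build held 4 of the 5 genes, namely Cd22, Siglecf, Cd72 and Ly75. The 250 bases before the annotated start are printed for both Siglecs and for Cd72, because these are the inhibitory receptors that lay on opposite sides of the naive level. The windows are those of Cd22 (chr7:30879029-30879278, minus strand), Siglecf (chr7:43351091-43351340, plus strand) and Cd72 (chr4:43454627-43454876, minus strand), each written 5′ to 3′ on the gene's strand. Capitals mark letters that match the core of the PU.1 motif (GAGGAA) or of the Blimp-1 motif (GAAAGT) on either strand.
Cd22: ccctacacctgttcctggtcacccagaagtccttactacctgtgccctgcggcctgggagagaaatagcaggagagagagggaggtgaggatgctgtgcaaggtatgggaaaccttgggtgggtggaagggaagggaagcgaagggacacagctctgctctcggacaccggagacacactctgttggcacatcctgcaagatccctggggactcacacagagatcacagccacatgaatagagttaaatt
Siglecf: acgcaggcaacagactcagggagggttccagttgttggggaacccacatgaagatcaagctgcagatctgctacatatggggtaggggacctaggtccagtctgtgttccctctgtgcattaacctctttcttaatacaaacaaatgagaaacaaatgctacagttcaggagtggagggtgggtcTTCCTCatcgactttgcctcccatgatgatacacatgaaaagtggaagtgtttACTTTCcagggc
Cd72: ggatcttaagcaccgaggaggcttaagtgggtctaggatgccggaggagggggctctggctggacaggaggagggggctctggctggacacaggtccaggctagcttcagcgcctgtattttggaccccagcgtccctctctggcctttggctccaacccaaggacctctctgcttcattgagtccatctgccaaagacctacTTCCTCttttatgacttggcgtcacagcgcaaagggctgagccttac
The PU.1 letters lay on the opposite strand in 2 of these windows, ending 59 bases before the start of Siglecf and 41 bases before that of Cd72, and 23.2% of all 32851 windows hold them. The window of Siglecf also held the Blimp-1 letters on the opposite strand, ending 6 bases before the start, as 12.3% of all windows do on either strand. Neither motif was in the window of Cd22, and the window of Ly75 held 1 match among the motifs searched, the RUNX letters TGTGGT, as 14.0% of windows do. No match was found in these 4 windows to the AP-1 letters TGANTCA (6.75% of all windows) or the octamer ATGCAAAT (1.60%), searched on both strands, and the motifs do not overlap in the windows shown. The matches describe letters only and say nothing on whether a factor binds. Prdm1, the gene of Blimp-1, had a log2 level of 4.24 in naive, 4.16 in deletion and 4.96 in anergy cells.

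Cd22 stood at log2 levels of 5.97, 6.26 and 6.50 on naive arrays 1 to 3, at 7.39, 7.16 and 7.70 on deletion arrays 1 to 3, and at 7.32, 7.07 and 7.28 on anergy arrays 1 to 3. Each antigen-stimulated array lay above each naive array, and the deletion and anergy arrays overlapped. The difference was 1.17 ± 0.16 on the log2 scale between deletion and naive (SE; 95% limits 0.82 to 1.53; n = 3 arrays per group) and 0.98 ± 0.16 between anergy and naive (0.63 to 1.33). Between deletion and anergy it was 0.19 ± 0.16, with limits of -0.16 to 0.55, so that neither equal levels nor a difference of up to 0.55 lay outside the limits. The limits of this and the other receptors take no account of how the genes were chosen and are not a test.

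Siglecf stood at 2.29, 2.22 and 2.43 on the naive arrays, 2.64, 2.56 and 2.72 on the deletion arrays, and 2.86, 2.69 and 2.56 on the anergy arrays. These are dim values: only 11.6% of probe sets had a lower mean over the 9 arrays, and the lowest Siglecf value lay 0.55 above the lowest value of any probe set. Groups did not overlap between naive and either stimulated group, but the nearest arrays were only 0.13 apart. The differences were 0.33 ± 0.09 in deletion (0.12 to 0.53) and 0.39 ± 0.09 in anergy (0.19 to 0.59) against naive, and -0.06 ± 0.09 in deletion against anergy (-0.27 to 0.14). No background or detection value was used here, so whether Siglecf RNA was detected at all cannot be said. So close to the lowest values a log2 difference may understate a real one, and whether any part of these differences was background was not tested.

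Cd72 showed the opposite pattern to Cd22. It stood at 8.85, 8.77 and 8.99 on the naive arrays, 7.26, 6.92 and 7.74 on the deletion arrays, and 7.35, 7.23 and 7.12 on the anergy arrays. The naive arrays lay above all 6 others by at least 1.03, while the deletion arrays spanned the whole range of the anergy arrays. The difference was -1.56 ± 0.17 in deletion against naive (-1.95 to -1.18), -1.64 ± 0.17 in anergy against naive (-2.02 to -1.25), and 0.07 ± 0.17 in deletion against anergy (-0.31 to 0.46). Its probe set carries the suffix a, which marks probes that can bind several transcripts of a gene. Cd72 varied more between deletion arrays (SD 0.41) than between naive (0.11) or anergy arrays (0.12). Without deletion replicate 3, the highest of its group, the difference from naive was -1.78.

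Cd83 stood at 4.78, 4.56 and 4.05 on the naive arrays, 7.04, 7.38 and 7.43 on the deletion arrays, and 6.41, 6.58 and 5.87 on the anergy arrays. The 3 groups formed 3 separate ranges, with naive lowest, anergy between and deletion highest. The difference was 2.82 ± 0.22 in deletion against naive (2.33 to 3.31) and 1.82 ± 0.22 in anergy against naive (1.34 to 2.31). Deletion exceeded anergy by 1.00 ± 0.22 (0.51 to 1.48), a 2.00-fold difference with limits of 1.42 to 2.80, and the nearest arrays of the 2 groups were 0.46 apart. The lowest anergy value came from replicate 3, an array with a residual SD of 0.166 over all probe sets against 0.094 to 0.128 on the other 8 arrays. Without it deletion exceeded anergy by 0.79 ± 0.21, and the other 4 receptors kept the direction of the anergy minus naive difference. The deletion minus naive difference cannot change when an anergy array is left out.

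Ly75 stood at 6.55, 6.69 and 6.72 on the naive arrays, 5.97, 6.07 and 6.11 on the deletion arrays, and 6.20, 6.02 and 5.78 on the anergy arrays. All 3 naive arrays were the highest, and the deletion arrays lay within the range of the anergy arrays. The difference was -0.60 ± 0.10 in deletion against naive (-0.83 to -0.37), which is 1.52-fold, and -0.65 ± 0.10 in anergy against naive (-0.88 to -0.42), which is 1.57-fold. Between deletion and anergy it was 0.05 ± 0.10 (-0.18 to 0.28).

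**Figure D1:**
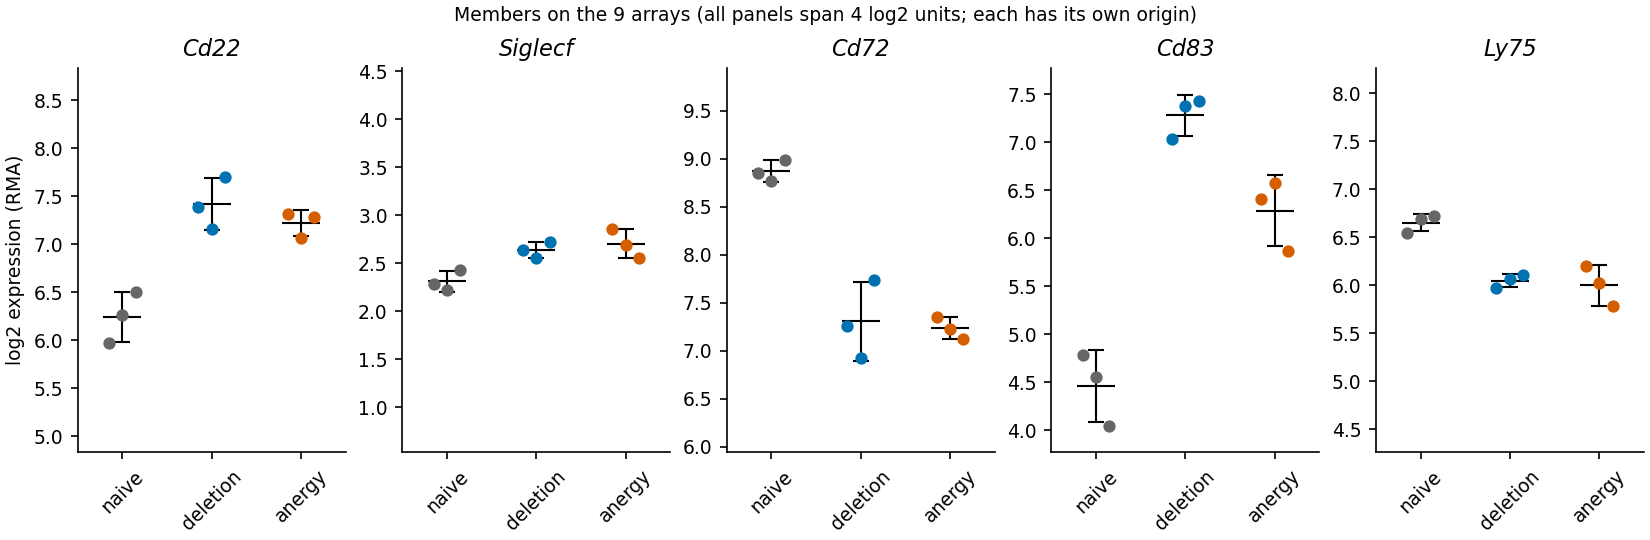
Log2 expression (RMA, vertical axis) of the 5 receptor genes on the 9 arrays, by group; points are arrays in the order of replicates 1 to 3, and black bars are the mean and SD. Naive arrays lie apart from the other 6 for each gene, and deletion and anergy separate for Cd83, at 7.04 to 7.43 against 5.87 to 6.58.

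Against naive, 5 of 5 receptors had arrays that did not overlap with those of deletion, where 31.5% of all probe sets did not overlap, and 5 of 5 did not overlap with those of anergy, where 33.9% did not. Nothing is read from these counts, because the genes were chosen with the differences known, and both comparisons share the naive arrays. Between deletion and anergy 1 of 5 did not overlap, against 16.6% of all probe sets. The median size of the 5 differences was 1.17 in deletion against naive, 0.98 in anergy against naive and 0.07 in deletion against anergy, beside medians of 0.09, 0.12 and 0.09 over all 1246 probe sets. By size of the difference, Cd83 ranked 21, Cd72 36, Cd22 51, Ly75 122 and Siglecf 255 of 1246 in deletion against naive. In deletion against anergy Cd83 ranked 13, Cd22 263, Cd72 698, Siglecf 751 and Ly75 841. Nothing is read from these medians and ranks either, because the genes were chosen with the differences known.

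**Figure D2:**
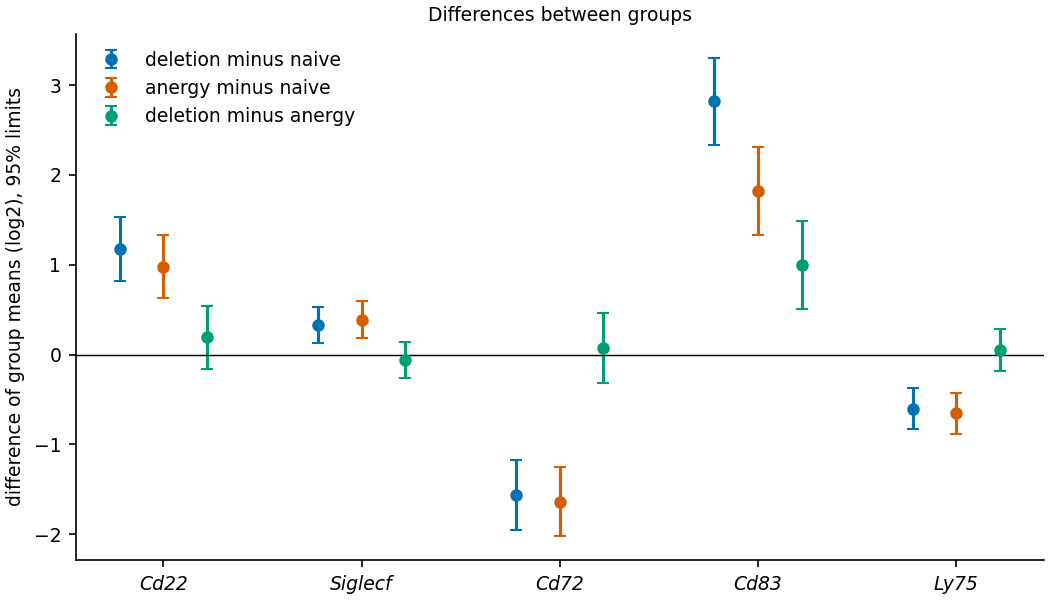
Differences of group means (log2, vertical axis) for the 5 receptor genes in the 3 comparisons, with 95% limits from limma over all probe sets. Cd83 and Cd22 lie above 0 and Cd72 and Ly75 below 0 against naive, and Siglecf lies above 0 by 0.33 and 0.39. The limits of deletion minus anergy run from 0.51 to 1.48 for Cd83. The limits take no account of how the genes were chosen and are not a test.

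Spread between replicates differed among the receptors and is given as a description. The pooled SD within groups was 0.33 for Cd83, larger than that of 98.1% of all probe sets, 0.26 for Cd72 (96.1%) and 0.23 for Cd22 (94.8%). It was 0.14 for Ly75 (70.4%) and 0.12 for Siglecf (53.5%).

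The rest of the Siglec family was set beside Cd22 and Siglecf. Of 7 other Siglecs measured, 0 passed in either direction in any of the 3 comparisons in limma at an adjusted p under 0.05. Their means over the 9 arrays ran from 2.66 (Siglech) to 5.52 (Siglec15), and whether each was detected was not measured. At an unadjusted p under 0.05 there were 0 in deletion against naive, 1 in anergy against naive and 1 in deletion against anergy. Among all probe sets 8.51% were called higher and 10.5% lower in deletion against naive, 10.8% and 16.1% in anergy against naive, and 2.09% and 1.28% in deletion against anergy. Siglecg, the other inhibitory Siglec of B cells, stood at 4.31 ± 0.03 in naive, 4.28 ± 0.02 in deletion and 4.28 ± 0.02 in anergy cells (SD, n = 3). Siglec1, the sialoadhesin of macrophages, differed by -0.07 in deletion and 0.16 in anergy from naive, and Cd33, Siglece, Siglech, Siglec15 and Mag, the myelin-associated Siglec, differed by no more than 0.15. The median difference of the 7 was -0.02 in deletion against naive and 0.01 in anergy against naive, as were those of all probe sets to 2 decimals (-0.02 and 0.01).

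The genes that make, sulfate or remove the sialylated ligands of Siglecs changed in more cases. Of 20 measured, 3 rose and 5 fell in deletion against naive (limma), with a median difference of -0.01, and 3 rose and 7 fell in anergy against naive, with a median of -0.20. St6gal1, which makes the alpha-2,6-sialic acid that CD22 binds, stood at 10.90 ± 0.13 in naive, 10.00 ± 0.12 in deletion and 8.52 ± 0.32 in anergy cells (SD). It thus fell by 0.90 ± 0.15 (SE, limma adjusted p = 0.00147) and by 2.38 ± 0.15 (adjusted p = 9.3e-07), whereas Cd22 was higher in both groups. Cmah, which turns sialic acid into the N-glycolyl form that mouse CD22 prefers, fell by 0.72 ± 0.11 in deletion (adjusted p = 0.00134) and by 0.98 ± 0.11 in anergy (adjusted p = 0.000124).

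Chst2, a sulfotransferase that acts on GlcNAc, rose by 4.16 and 3.73, St8sia1, which makes disialylated gangliosides, fell by 1.37 and 2.67, and the sialidase Neu1 fell by 0.72 and 1.02 in deletion and anergy. St3gal3, an alpha-2,3-sialyltransferase, fell by 0.60 in deletion and by 0.62 in anergy. Chst1, which sulfates galactose in ligands that Siglec-F binds, differed by -0.14 and -0.25 and did not pass. Between deletion and anergy 3 of the 20 were higher in deletion and 0 lower (limma; 9 had an unadjusted p under 0.05), namely St6gal1 (1.48 ± 0.15), St8sia1 (1.30) and St3gal4, an alpha-2,3-sialyltransferase (0.44, adjusted p = 0.0315). The median of the 20 was 0.20 in this comparison and -0.01 over all probe sets. The call of St3gal4 was kept in 5 of 14 alternative settings and was lost after median centring (adjusted p = 0.0632), with only the 2 groups fitted (0.0879), and without any array other than naive replicate 3 and deletion replicate 3 (0.0517 to 0.117). The probe sets of St3gal4, St8sia1 and Cmah carry the suffix s, which marks probes that can bind several transcripts.

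Lectins related to Cd72 and Ly75 were mostly level. Of the 3 relatives of Ly75 in the mannose receptor family, Mrc1, Mrc2 and Pla2r1, 0 passed in limma in any comparison, and 0 had an unadjusted p under 0.05. Their median differences were 0.06 in deletion and 0.02 in anergy against naive. Of 28 other C-type lectins, 0 passed in deletion against naive or in deletion against anergy (limma; 0 also at an unadjusted p under 0.05 in both). In anergy against naive 1 fell, Clec2d, the ligand of the NKR-P1 receptors of natural killer cells, by 0.91 on the log2 scale (adjusted p = 0.0267), with naive arrays at 9.40, 8.35 and 8.30 and anergy arrays at 7.95, 7.83 and 7.54. With 1 array left out, single lectins of this list gained a call: 1 rose without deletion replicate 1 and 1 fell without deletion replicate 3 in deletion against naive, 1 was higher without deletion replicate 1 in deletion against anergy, and in anergy against naive 1 rose without anergy replicate 1 and 2 fell without deletion replicate 3. The call of Clec2d was kept in 10 of 14 alternative settings and was lost after quantile normalization (adjusted p = 0.0548), with only the 2 groups fitted (0.0645) and without anergy replicate 2 (0.0632) or anergy replicate 3 (0.104). Cd69, an activation receptor of lymphocytes, differed by -0.44 in deletion and -0.82 in anergy and did not pass. The median of the 28 was -0.03 in deletion and -0.01 in anergy against naive. Of 12 genes listed as partners of CD22 and CD72 signalling, only 2 were measured. Galnt1 is an enzyme that starts O-glycans and not itself a signalling partner, and Lgals9 is a galectin that binds CD22 and other B cell glycoproteins. In limma 0 of these 2 passed in any comparison, with 1 at an unadjusted p under 0.05 in anergy against naive and 0 in the other comparisons. The list thus says little on the signalling partners. In anergy against naive 1 of the 2 rose after quantile normalization, with array weights and without anergy replicate 3, and 1 fell without anergy replicate 2.

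Markers of the cells that usually carry these receptors were examined in the same arrays. The marker lists share genes with the Siglec and C-type lectin lists, Siglecg, Siglec1 and Cd33 among them, and with each other. Their counts are therefore not separate from those above. Of 16 B cell markers listed, 3 were measured. Fcer2a, the low-affinity IgE receptor CD23 of B cells, lay at 2.63 to 2.89 on all 9 arrays, near the lowest values, and Siglecg at 4.26 to 4.34. The third, Cxcr5, a homing receptor of B cells and follicular T cells, rose in deletion against naive by 0.64 (limma adjusted p = 0.0138), with naive arrays at 6.30, 6.65 and 6.22 and deletion arrays at 6.83, 7.06 and 7.19. Its call was lost without naive replicate 1 (adjusted p = 0.0603), naive replicate 3 (0.0626) or deletion replicate 3 (0.0568). In anergy against naive 0 of the 3 passed (0 at an unadjusted p under 0.05), and Cxcr5 differed by 0.10. The log2 of the summed linear level of the 3 markers was 6.66 to 6.98 in naive, 7.12 to 7.43 in deletion and 6.66 to 7.02 in anergy cells. Cxcr5 is the brightest of the 3, and the higher sum in deletion repeats its rise. Fcer2a (mean 2.69 in deletion, 2.72 in naive) and Siglecg (4.28 and 4.31) did not rise there. Any part of B cell RNA in the Cd22 or Cd72 values was not tested.

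Of 14 measured dendritic cell and macrophage markers, 1 rose in each comparison with naive and 0 fell, and the 1 was Csf2ra, a receptor chain for GM-CSF, at 0.92 in deletion (limma adjusted p = 0.000286) and 0.36 in anergy (adjusted p = 0.0433). It was also the 1 of 14 that was higher in deletion than in anergy, by 0.55 (adjusted p = 0.0315). The first call was kept in all 14 alternative settings, the second in 3 and the third in 6. The second was lost after median centring (adjusted p = 0.135), with only the 2 groups fitted (0.0967) and with a replicate block (0.0501). Leaving out each array in turn, other than anergy replicate 3, also ended that call. The third was lost after median centring (adjusted p = 0.0624), with only the 2 groups fitted (0.0929), and without naive replicate 2, any deletion replicate, or anergy replicate 2 or 3 (0.0502 to 0.127). Ccl22 and Ccl17, chemokines of the mature dendritic cells that carry CD83, differed by -0.03 and -0.13 in deletion and by -0.08 and -0.09 in anergy and did not pass. The summed level of the 14, which includes the rise of Csf2ra, was 8.30 to 8.33 in naive, 8.45 to 8.53 in deletion and 8.33 to 8.38 in anergy cells, as log2. Of 7 eosinophil and granulocyte markers 0 passed in any comparison (limma), with 0, 1 and 0 at an unadjusted p under 0.05 in deletion against naive, anergy against naive and deletion against anergy. Without anergy replicate 2, 1 of the 7 fell in anergy against naive. Among them were Ccr3 and Il5ra, which define eosinophils and stood at 2.60 and 2.75 in naive, 2.55 and 2.71 in deletion and 2.51 and 2.61 in anergy cells. Both are dim, with a lower mean in only 11.6% and 14.5% of probe sets, and whether either was detected was not measured. The summed level of the 7 was 6.59 to 6.74 in naive, 6.61 to 6.69 in deletion and 6.59 to 6.64 in anergy cells. The part of dendritic cell or eosinophil RNA in Cd83, Ly75 and Siglecf was not tested. Of 13 T cell markers, Cd2 and Il7r were measured. Cd2, an adhesion receptor of T cells, stood at 11.58 in naive, 10.01 in deletion and 9.40 in anergy cells, and both genes fell in deletion and in anergy against naive (2 of 2, limma), Il7r, the interleukin-7 receptor, by 2.25 and 2.39. Cd2 was higher in deletion than in anergy by 0.61 (adjusted p = 0.0390), a call kept in 5 of 14 settings. That call was lost after quantile normalization (adjusted p = 0.09045) and with only the 2 groups fitted (0.137). Leaving out any array other than deletion replicates 1 and 3 also ended it (adjusted p 0.0503 to 0.102). The other T cell genes listed, Cd3e and Cd8a among them, were not analysed here.

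**Figure D3:**
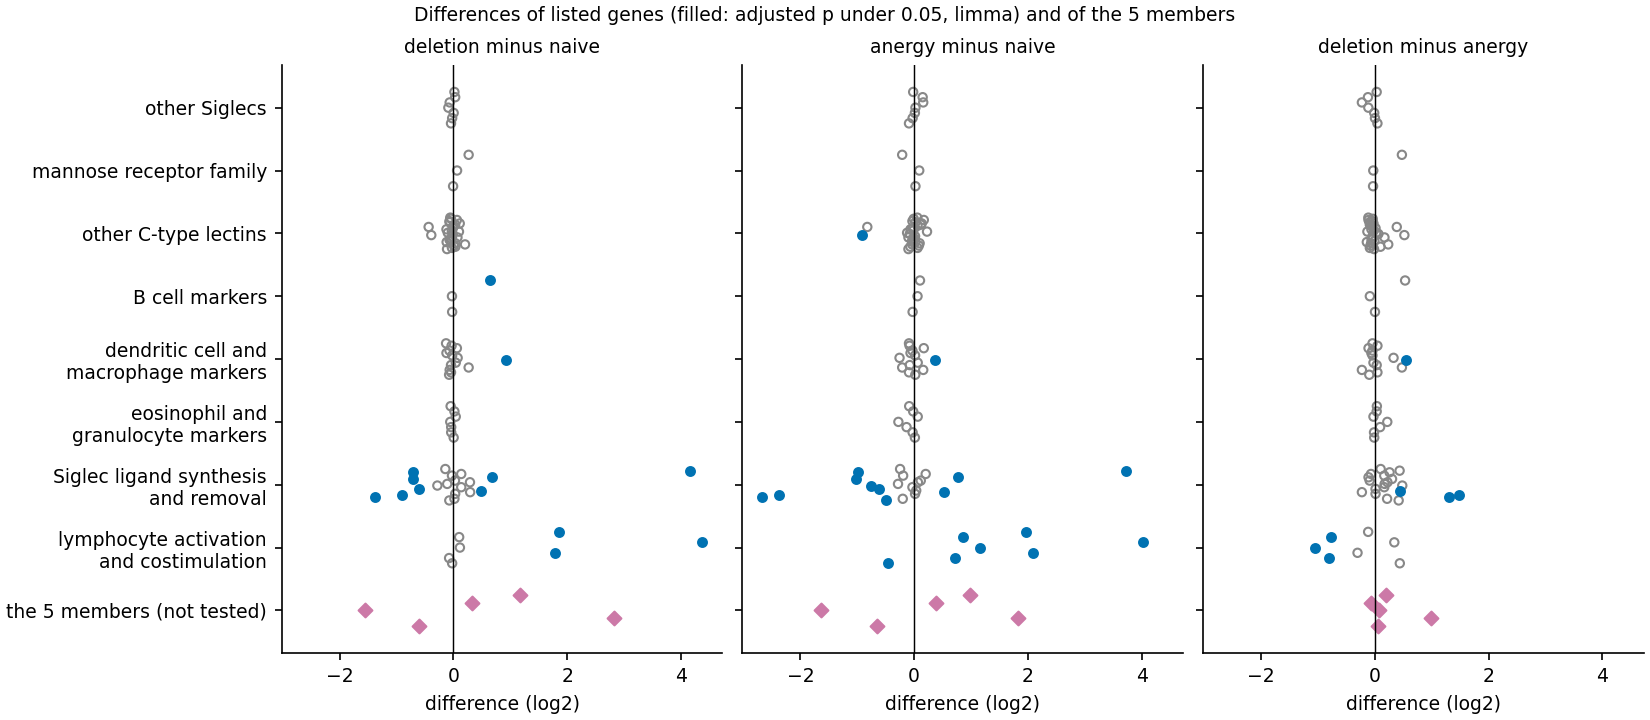
Differences (log2, horizontal axis) of measured genes in 8 lists and of the 5 receptor genes (diamonds) in the 3 comparisons; filled circles passed limma at an adjusted p under 0.05 and open circles did not. The 7 other Siglecs stay within -0.23 to 0.16 in all panels.

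Activation genes give a scale for Cd83, which lymphocytes raise when activated. Of 7 measured activation and costimulation genes, 3 rose in deletion against naive and 0 fell (limma), namely Il2rb, a chain of the receptors for interleukins 2 and 15 (1.78), the interferon gene Ifng (4.38) and the adhesion receptor Cd44 (1.85). In anergy against naive 6 rose, among them Il2ra, whose product (CD25) gives the interleukin-2 receptor its high affinity, by 1.16. Il2ra, Prdm1 and Havcr2, the inhibitory receptor Tim-3, were lower in deletion than in anergy by 1.05, 0.80 and 0.76, and so had the opposite order to Cd83, and 0 of the 7 were higher in deletion, against 1 with a replicate block and 1 with array weights. In that comparison Il2rb differed by -0.30 and did not pass (adjusted p = 0.114), but with a replicate block it passed (adjusted p = 0.0344), as it did after quantile normalization (0.0124) and with array weights (0.0450). The median of the 7 was 0.11, 1.16 and -0.30 in deletion against naive, anergy against naive and deletion against anergy.

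The genes most like each receptor were taken as the 3 with the smallest root mean square difference over the 9 arrays, after each gene's mean was removed, among 904 other named genes. For Cd83 the nearest was Igfbp7, a binding protein of insulin-like growth factors, at 0.29 log2 units, with means of 4.43 in naive, 7.25 in deletion and 6.19 in anergy cells. Chst3, a chondroitin sulfotransferase, followed at 0.38 and Psen2, a subunit of gamma-secretase, at 0.41, and 0% of the 904 genes lay within 0.25. For Cd22 the nearest were Il3ra, the alpha chain of the interleukin-3 receptor (0.23), Vcan, the proteoglycan versican (0.24), and Uap1l1 (0.25). For Cd72 they were Galnt6, which starts O-glycans (0.20), Pkd1, the polycystin-1 gene (0.21), and Hs6st1, a heparan 6-O-sulfotransferase (0.23), and 0.332% of genes lay within 0.25 of either Cd22 or Cd72.

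For Ly75 the nearest were Abhd16a (0.09), Il2rg, the chain shared by receptors of the interleukin-2 family (0.09), and Icam2, an adhesion ligand (0.09), with 14.8% of genes within 0.25. For Siglecf they were Ube2v1 (0.08), Lgalsl, a galectin-like gene (0.08), and Uxs1, which makes UDP-xylose (0.09), with 60.7% of genes within 0.25. A small distance was thus common for Siglecf, whose values moved little, and rare for Cd22, Cd72 and Cd83. These likenesses describe 9 arrays in 3 groups. The probe sets of Igfbp7, Psen2, Icam2, Ube2v1 and Uxs1 carry the suffix s, so their probes can bind several transcripts.

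**Figure D4:**
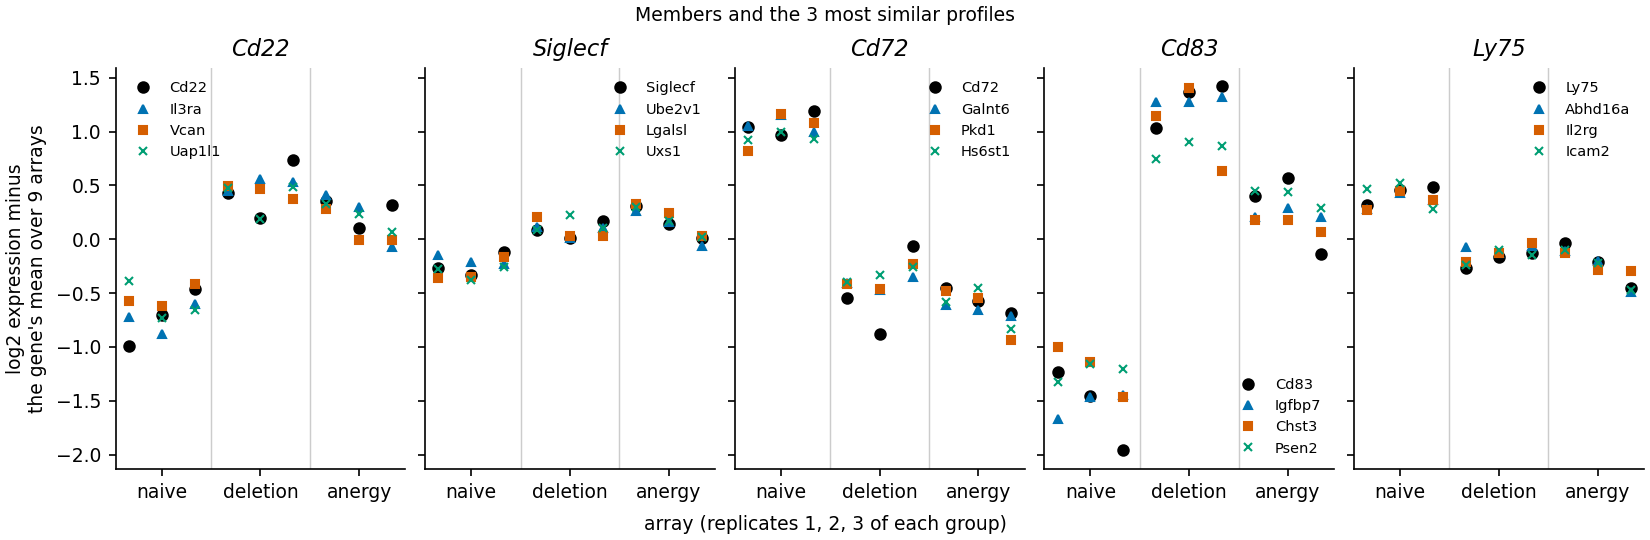
Log2 expression after subtraction of each gene's mean over the 9 arrays (vertical axis) for the 5 receptor genes (black) and the 3 genes most like each, by array within groups. For Cd83 the nearest gene, Igfbp7, lies at a root mean square distance of 0.29, and for Siglecf the nearest, Ube2v1, at 0.08.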

How the data were processed

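RNA of 9 samples had been measured on GLYCOv4 arrays after Trizol extraction and biotin labelling. Values deposited by the authors are log2 expression from RMA, the step the submitters' processing notes name; its version, the array annotation and any filter are not given in the sources used here. Array medians were 4.44 to 4.58, and replicates correlated at 0.995 to 0.998 across probe sets. Precision is limited by the 3 arrays per group: the median SE of a difference was 0.087.

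Values were used as deposited. Accessions without versions were matched to RefSeq's GRCm38.p6 gene table, which named 963 of 1246 probe sets (77.3%); a gene with several was represented by the brightest. The fit over all 9 arrays used R 4.3.3 and limma 3.58.1 (lmFit, eBayes; 6 residual and 3.65 prior degrees of freedom), two-sided, with Benjamini-Hochberg adjustment over 1246 probe sets and a threshold of 0.05. The fit was tested on simulated data. The receptors and the gene lists were chosen with earlier results of these data known. Beside the receptors, the genes named are up to 4 per list and comparison with the smallest adjusted p past the threshold, the 3 most similar profiles per receptor, and St6gal1 and Cmah whatever their result; other list members were chosen after their values were seen. Alternatives were median centring, quantile normalization, a replicate block, the 2 groups alone, array weights, each array left out, and, for counts of probe sets, the dimmest 33.4% left out. Deletion and anergy arrays of the same replicate number deviated together (r = 0.195, 0.270 and 0.280), a possible pairing read from the data. Those of unlike number had r of -0.303 to 0.160, but deviations from a mean of 3 arrays depend on each other. The main fit took no pairing, and the replicate block is the alternative that does. Against naive, the correlations of the same replicate number were -0.136, 0.118 and -0.142 for deletion and -0.154, 0.274 and 0.175 for anergy, and no pairing was read there. The result of 1 listed gene is not reported here.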

Additional observations from a re-analysis of the deposited data

How the results depend on the processing

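The 15 differences of the 5 receptors were recomputed in 14 settings. The replicate block, the 2 groups alone, and leaving out an array of the third group cannot change a difference of group means. Their values repeat the main value by design and say nothing on stability. Of all 210 values, with these counted, 209 lay within 1 SD of the replicates from the value given. The exception was Cd72 in anergy against naive, at -1.50 after quantile normalization. All 10 differences from naive kept their sign in each setting, and the deletion minus anergy difference of Cd83 ranged from 0.77 to 1.14. In 6 of the 210 values the sign changed, all in deletion against anergy, for Siglecf, Cd72 and Ly75, whose arrays overlapped there. By design the replicate block changed only the SE of each receptor's difference, with Cd83 in deletion against anergy at 1.00 ± 0.19. Each receptor had 1 probe set, so averaging over probe sets was not run.

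The number of probe sets called in deletion against anergy was 42 (26 higher, 16 lower). It became 26 after median centring (13 and 13), 70 after quantile normalization (32 and 38), 21 with only the 2 groups, 75 with array weights and 55 with a replicate block. It was 20 to 44 when 1 array was left out, with 20 without deletion replicate 2, 27 without deletion replicate 3 and 28 without anergy replicate 2. The cause was not tested. The counts against naive, 237 for deletion and 334 for anergy, stayed within 1.5 times in all 15 settings run for them. The signal over background of dim probe sets such as Siglecf was not measured here and limits what can be said of them.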
